A study of Homo sapiens with 8 samples.

Results

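Frizzled (FZD) proteins are the cell surface receptors that bind WNT ligands, and LRP5 and LRP6 are the co-receptors that join them. The genes FZD1 to FZD8, LRP5 and LRP6 were taken by name from the gene counts of every library. All 10 were among the 23228 genes listed, and all 10 passed the filter on low counts with 13915 genes in total. The 8 libraries carry the label U87 MG, a long-established line of human glioblastoma cells, and fall into 4 groups of 2 RNA sequencing libraries. As described, ERβ5 and ERβ1 cells had estrogen receptor beta (ERβ, encoded by ESR2) knocked out and the ERβ5 or ERβ1 isoform put back. ERβ-KO cells carried the CRISPR/Cas9 knockout alone, and control cells are labelled as U87 control. So described, the ERβ5 and ERβ1 cells share the knockout background with the ERβ-KO cells. The labels name no clone, guide or promoter for the knockout and the returned isoforms. The series title asks whether the ERβ isoforms act differently in glioblastoma.

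When a WNT ligand joins a frizzled receptor and LRP5 or LRP6 into a single complex, Dishevelled proteins are recruited at the membrane and the complex that degrades β-catenin is held back. β-catenin then acts with TCF and LEF factors on target genes such as AXIN2. Frizzled receptors also act without LRP5 or LRP6, in planar cell polarity and calcium signalling. The ubiquitin ligases RNF43 and ZNRF3 remove frizzled receptors from the cell surface. In gliomas the pathway is known for its part in stem-like growth and invasion.

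Gene reads ran from 26760897 to 48076414 per library. ESR2 had 7 and 10 reads in ERβ5, 6 and 18 in ERβ1, 23 and 21 in ERβ-KO and 25 and 20 in control libraries. These counts do not bear out the labels. ESR2 was not lower in ERβ-KO than in control (log2 change 0.06 ± 0.37 SE, edgeR adjusted p = 0.932). Against ERβ-KO it was lower, without passing, in ERβ1 (-0.92 ± 0.41, edgeR adjusted p = 0.118) and ERβ5 (-1.11 ± 0.44, edgeR adjusted p = 0.0761). The labels do not say whether the returned isoforms would be counted. Directions below are between libraries so labelled. The labelled cell type was checked against markers of 2 kinds. Of 10 markers of mesenchymal glioma cells only FN1 reached 10 CPM (the standard depth-scaled count, here with TMM factors) in every library. POSTN and S100B had 0 reads in all 8 libraries, CHI3L1 was at most 0.122 CPM and GFAP at most 0.136 CPM. All 10 markers of luminal epithelium reached that level, among them KRT8 at 2060 to 4450 CPM. These marker levels go against the labelled cell type. Their summed level was 16200 to 17300 CPM in ERβ5, 17400 to 18400 in ERβ1, 12500 to 12900 in ERβ-KO and 14400 to 15200 in control libraries. The summed glioma markers were 84 to 85.4 CPM in ERβ5, 57.7 to 69.3 in ERβ1, 143 to 188 in ERβ-KO and 102 to 105 in control. Both sums differed between the groups, and their part in the results below was not tested. In bulk RNA, fewer cells of a type cannot be told apart from less RNA per cell. Separate cultures are not named for the 2 libraries of a group, which the design text calls duplicates. The p-values therefore reflect library-to-library spread alone, which can be technical.

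FZD8 was the receptor that differed most between the groups. It was low in the ERβ-KO and ERβ5 libraries and high in the ERβ1 and control libraries. FZD4 was lowest in the ERβ1 libraries and FZD6 highest in the ERβ-KO libraries. LRP5 was lowest in the ERβ-KO libraries, and FZD2 was lower there than in control. These differences of FZD6, LRP5 and FZD2 did not pass the test after the correction for GC content given below. FZD1, FZD3, FZD5, FZD7 and LRP6 passed the test in no comparison.

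**Figure D1:**
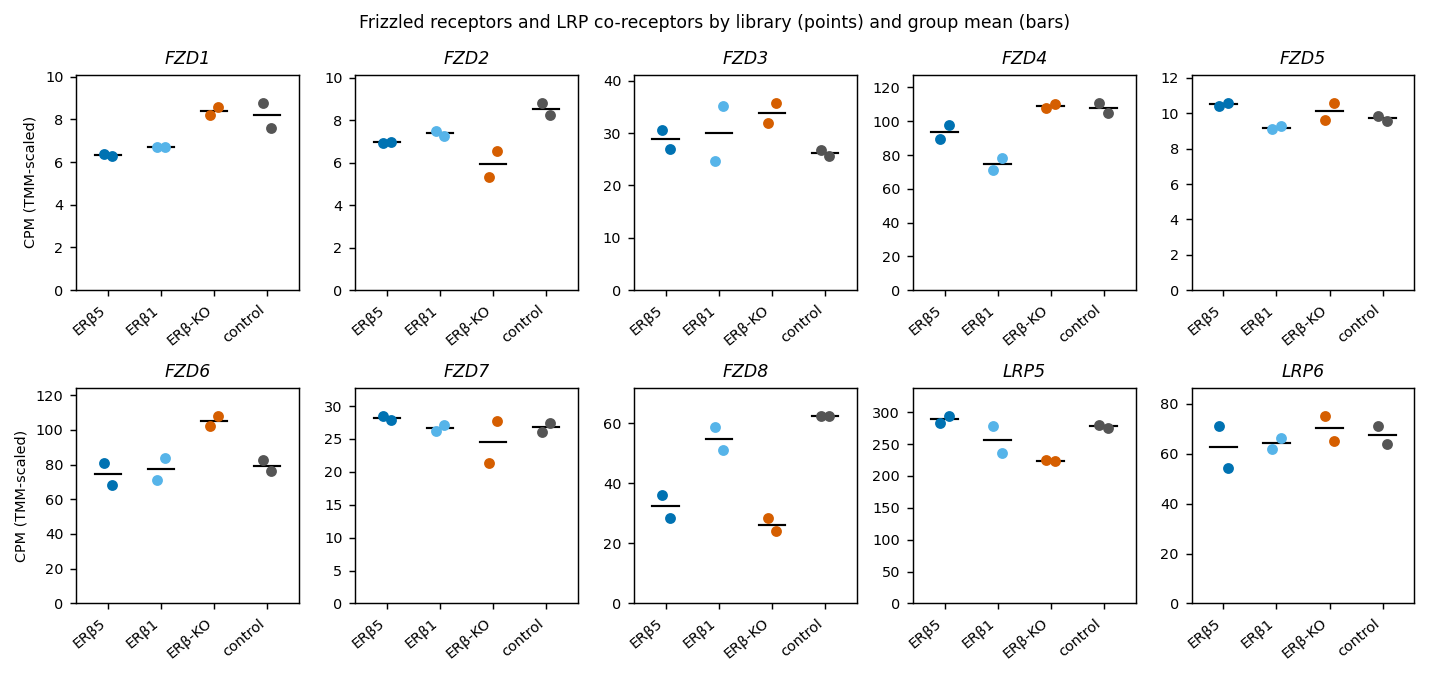
Level of each gene in CPM (vertical axis, linear from 0) in the 2 libraries of each group (points) with the group mean (bar). The FZD8 points lie between 24 and 36.1 CPM in ERβ5 and ERβ-KO, and between 51 and 62.5 CPM in ERβ1 and control.

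Divided by the length of its exons, LRP5 was the most abundant of the 10 transcripts, at 36 to 47.6 CPM per kb over the libraries. LRP6 was lower, at 5.25 to 7.25 CPM per kb, although both co-receptors take the same place in the receptor complex. Among the frizzled receptors FZD6 came first, at 16.7 to 26.6 CPM per kb. FZD4 followed at 9.65 to 15.1 CPM per kb and FZD8 at 5.93 to 15.4, and these ranges overlap. FZD7 ran from 4.65 to 6.2 CPM per kb, inside a range that overlaps that of LRP6. FZD3 (1.79 to 2.6 CPM per kb), FZD2 (1.41 to 2.34), FZD5 (1.29 to 1.51) and FZD1 (0.911 to 1.27) were the scarcest. These lengths come from a later annotation than the counts, so distances between genes with long or variable ends, such as FZD3 with 13786 exon bases, are approximate. Of the 2 frizzled genes outside the 10, FZD9 had 18 to 59 reads per library and FZD10 had 0 reads in all 8. For FZD10 a count of 0 allows up to 3 reads, or 0.062 to 0.113 CPM, by counting error alone.

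In ERβ-KO against control, 1 of the 10 genes rose (FZD6) and 2 fell (FZD2 and FZD8), where 17.5% of all tested genes were called. In ERβ1 against ERβ-KO, FZD8 rose while FZD4 and FZD6 fell, beside 24.9% of all tested genes. In ERβ5 against ERβ-KO, LRP5 rose and FZD6 fell, beside 28.2% of all tested genes. FZD8 alone passed in ERβ5 against ERβ1, where it was lower and 4.66% of all tested genes were called. The remaining comparisons set the isoform libraries against control. FZD4 was lower in ERβ1, the single call there beside 4.06% of all tested genes, and FZD8 was lower in ERβ5, the single call there beside 13.2%. A call is an adjusted p under 0.05 in the quasi-likelihood test of edgeR, adjusted over all 13915 genes by Benjamini-Hochberg. The shares called among the 10 genes lie near those of all genes or rest on 1 gene, and the counts are not a result about the family. The median log2 change of the 10 genes was 0.02 in ERβ-KO against control, -0.13 in ERβ1 against ERβ-KO, -0.05 in ERβ5 against ERβ-KO and -0.05 in ERβ5 against ERβ1, beside medians of all tested genes between -0.01 and 0.01. The groups' libraries did not overlap for 5 of the 10 genes in ERβ-KO against control (69.2% of all tested genes), 7 in ERβ1 against ERβ-KO (65.3%) and 8 in ERβ5 against ERβ-KO (66%). The same held for 7 genes in ERβ5 against ERβ1 (43.1%), 5 in ERβ1 against control (55.1%) and 8 in ERβ5 against control (60.1%). With 2 libraries per group such separation was common among all genes. Comparisons that share the ERβ-KO or the control libraries are not independent of each other.

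**Figure D2:**
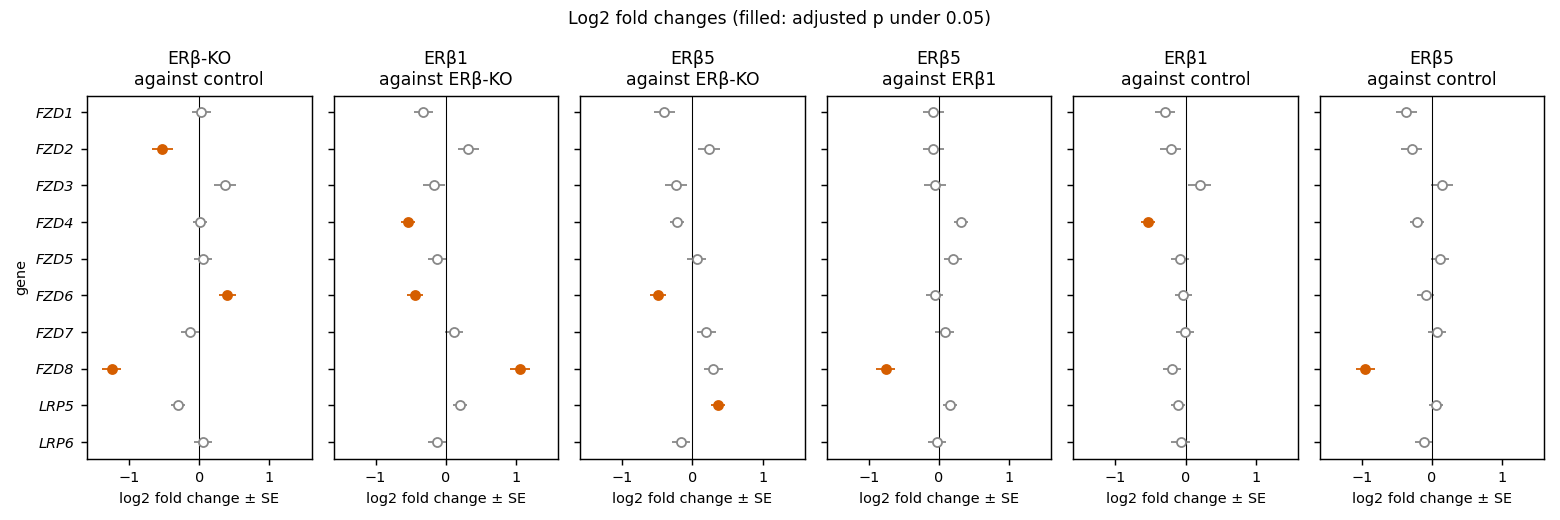
Log2 fold change (horizontal axis) with its SE for each gene in 6 comparisons, filled where the adjusted p was under 0.05. FZD8 is filled in 4 of the 6 panels, from -1.25 in ERβ-KO against control to 1.06 in ERβ1 against ERβ-KO.

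FZD8 belongs with FZD5 to the same branch of the receptor family and binds WNT ligands that signal through β-catenin. It is a gene with 1 exon at chr10:35927175-35931224 on the minus strand (GRCh37, the build of hg19), and its exon shares 81 bases with the microRNA gene MIR4683 on the same strand. It also shares 318 exon bases with a long noncoding RNA gene on the opposite strand that is not listed in the count files. The labels give no strand setting for the counting, so reads of that RNA could be among the FZD8 counts, and their part in the FZD8 results was not tested. FZD8 had 36.1 and 28.6 CPM in ERβ5, 58.8 and 51 CPM in ERβ1, 28.4 and 24 CPM in ERβ-KO and 62.5 and 62.5 CPM in control libraries. The ERβ5 and ERβ-KO libraries were low, the others were high, and no library of the low groups reached a library of the high groups. The lower ERβ5 library lay only just above the higher ERβ-KO library.

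FZD8 fell by 1.25 ± 0.14 (SE) on the log2 scale in ERβ-KO against control (edgeR adjusted p = 0.000482), to 26.2 ± 3.14 CPM in ERβ-KO against 62.5 ± 0.00665 CPM in control (SD, n = 2 each). In ERβ1 against ERβ-KO it rose by 1.06 ± 0.14 (edgeR adjusted p = 0.000361), to 54.9 ± 5.52 CPM. In ERβ5 against ERβ-KO the difference was 0.30 ± 0.14 and did not pass (edgeR adjusted p = 0.118), with 32.4 ± 5.34 CPM in ERβ5. The isoform libraries thus differed in this receptor. The change in ERβ5 against ERβ1 was -0.76 ± 0.14 (edgeR adjusted p = 0.0081), which is 1.69 times lower. Without ERβ1 replicate 1 that change was -0.66 and did not pass (edgeR adjusted p = 0.0748). Set against control, FZD8 was -0.19 ± 0.13 in ERβ1 (edgeR adjusted p = 0.477) and -0.95 ± 0.14 in ERβ5 (edgeR adjusted p = 0.00104).

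FZD5, the nearest relative of FZD8, is a receptor best known from the intestine and the eye. FZD5 had 10.4 and 10.6 CPM in ERβ5, 9.09 and 9.28 CPM in ERβ1, 9.61 and 10.6 CPM in ERβ-KO and 9.87 and 9.58 CPM in control libraries. Its highest library was 1.17 times its lowest, the smallest spread of the 10 genes, against 2.6 times for FZD8. No comparison passed for FZD5 (edgeR adjusted p from 0.479 to 0.81). The ratio of FZD8 to FZD5 reads needs no scaling of the libraries. It was 3.47 and 2.69 in ERβ5, 6.47 and 5.5 in ERβ1, 2.96 and 2.27 in ERβ-KO and 6.33 and 6.53 in control. The ratio is not corrected for the trend with GC content given below. Transcript GC content is 64.6% for FZD8 and 51.3% for FZD5.

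The bases just upstream of the gene start are shown for FZD8, which had the widest range of group means, and for its relative FZD5, whose range was 0.20 on the log2 scale. They are the 250 bases before the start in the RefSeq-derived table on GRCh38.p14, read 5′ to 3′ along the gene, where FZD8 spans chr10:35642297-35642546 and FZD5 spans chr2:207769907-207770156, both on the minus strand. Capitals mark matches on either strand to the GC box GGGCGG, the CCAAT box (CCAAT) and the TATA box (TATAAA).
FZD8: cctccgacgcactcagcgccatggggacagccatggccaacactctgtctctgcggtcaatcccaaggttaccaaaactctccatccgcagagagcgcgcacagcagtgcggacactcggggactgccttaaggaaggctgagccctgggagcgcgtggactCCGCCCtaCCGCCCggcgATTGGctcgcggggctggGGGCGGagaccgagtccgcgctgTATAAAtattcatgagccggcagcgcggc
FZD5: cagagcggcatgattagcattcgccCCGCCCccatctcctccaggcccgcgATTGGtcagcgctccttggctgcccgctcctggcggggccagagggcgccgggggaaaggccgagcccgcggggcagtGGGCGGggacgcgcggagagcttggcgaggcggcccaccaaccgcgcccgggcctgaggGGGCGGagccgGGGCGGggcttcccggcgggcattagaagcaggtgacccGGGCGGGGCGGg
The FZD8 stretch held 3 GC boxes, 1 CCAAT box and 1 TATA box, and the FZD5 stretch held 6 GC boxes, 1 CCAAT box and no TATA box. Of all 35116 promoters in the table, 42.6% had a GC box, 32% a CCAAT box and 10.7% a TATA box in the same 250 bases. Neither stretch held the TCF/LEF core CTTTGAT (2.26% of all promoters) or the full palindromic estrogen response element (0.0399%). These matches describe letters in this window and are not evidence of binding. GC content was 65.2% in the FZD8 stretch and 76.8% in the FZD5 stretch, against a median of 58% over all promoters.

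FZD4 is the receptor for Norrin as well as WNT ligands and is needed for retinal blood vessels. It lies at chr11:86656721-86666437 on the minus strand (GRCh37). FZD4 had 89.3 and 97.5 CPM in ERβ5, 71.3 and 78 CPM in ERβ1, 108 and 110 CPM in ERβ-KO and 111 and 105 CPM in control libraries. The ERβ1 libraries were the lowest, the ERβ5 libraries came between, and the ERβ-KO and control libraries overlapped at the top. In ERβ1 against ERβ-KO, FZD4 fell by 0.54 ± 0.10 on the log2 scale (edgeR adjusted p = 0.00285), to 74.7 ± 4.73 CPM in ERβ1 against 109 ± 1.89 CPM in ERβ-KO (SD, n = 2 each). In ERβ1 against control it fell by 0.53 ± 0.10 (edgeR adjusted p = 0.0121). That second call was lost without control replicate 1 (edgeR adjusted p = 0.194), control replicate 2 (0.066) or ERβ1 replicate 1 (0.0822). In ERβ5 the differences were -0.22 ± 0.10 against ERβ-KO, 0.32 ± 0.10 against ERβ1 and -0.21 ± 0.10 against control, none past the threshold (edgeR adjusted p = 0.11, 0.0996 and 0.189). ERβ-KO and control differed by 0.01 ± 0.10.

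FZD4 shares 1399 exon bases with PRSS23, a protease gene on the opposite strand. Unlike the noncoding RNA gene at FZD8, PRSS23 is itself among the counted genes. Without the strand setting it is not known whether reads of this overlap were counted for either gene or set aside as ambiguous. PRSS23 had 25.9 and 35.3 CPM in ERβ5, 16.9 and 19.6 in ERβ1, 26.1 and 28.7 in ERβ-KO and 18.8 and 18.4 in control. PRSS23 thus moved with FZD4 between ERβ1 and ERβ-KO (log2 change -0.58 ± 0.15, edgeR adjusted p = 0.0178) but rose in ERβ-KO against control (0.56 ± 0.15, edgeR adjusted p = 0.0289), where FZD4 was at 0.01. Its part in the FZD4 counts was not tested.

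The FZD4 upstream stretch spans chr11:86955396-86955645 on the minus strand (GRCh38.p14) and is shown because FZD4 is the other receptor whose call in ERβ1 against ERβ-KO held after the correction for GC content given below. It held 6 GC boxes, 1 CCAAT box and no TATA box, TCF/LEF core or full estrogen response element, with the same capitals.
FZD4: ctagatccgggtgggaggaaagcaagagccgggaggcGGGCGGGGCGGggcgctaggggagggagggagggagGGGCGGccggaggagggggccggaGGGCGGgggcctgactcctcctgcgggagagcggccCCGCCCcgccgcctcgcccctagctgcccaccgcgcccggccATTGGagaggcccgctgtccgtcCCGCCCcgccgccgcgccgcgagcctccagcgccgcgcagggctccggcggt
Its GC content was 80.8%, above that of the FZD8 stretch.

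FZD6 and FZD3 form a branch that acts mainly in planar cell polarity, and FZD6 can hold back β-catenin signalling. FZD6 shares 138 exon bases with BAALC-AS1, an opposite-strand noncoding RNA gene that is not listed in the count files either. FZD6 had 81.1 and 68 CPM in ERβ5, 71 and 84 CPM in ERβ1, 102 and 108 CPM in ERβ-KO and 82.6 and 76.2 CPM in control libraries. The ERβ-KO libraries were above all others, which overlapped among themselves. FZD6 rose by 0.40 ± 0.12 on the log2 scale in ERβ-KO against control (edgeR adjusted p = 0.0388), and fell by 0.44 ± 0.12 in ERβ1 (edgeR adjusted p = 0.0218) and by 0.49 ± 0.12 in ERβ5 (edgeR adjusted p = 0.013), each against ERβ-KO. These calls did not hold when single libraries were left out. The first was lost without any of control 1, control 2, ERβ-KO 1 or ERβ-KO 2 (edgeR adjusted p = 0.129, 0.27, 0.12 and 0.143). That for ERβ1 was lost without ERβ-KO 1, ERβ-KO 2 or ERβ1 1 (edgeR adjusted p = 0.0605, 0.103 and 0.162). That for ERβ5 was lost without ERβ-KO 2 or ERβ5 2 (edgeR adjusted p = 0.0701 and 0.0739).

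FZD3, which guides axons in the developing brain, had 30.6 and 27 CPM in ERβ5, 24.7 and 35.2 CPM in ERβ1, 31.9 and 35.8 CPM in ERβ-KO and 26.7 and 25.7 CPM in control libraries. The ERβ1 libraries spanned nearly the whole range, so that group overlapped all the others. The ERβ-KO libraries stood above control by 0.37 ± 0.16 on the log2 scale, which did not pass (edgeR adjusted p = 0.116). In ERβ1 against ERβ-KO, FZD3 was at -0.17 (edgeR adjusted p = 0.442), and at -0.45 without ERβ1 replicate 2. With the correction for GC content given below, FZD3 was 0.17 ± 0.10 in that comparison (edgeR adjusted p = 0.231). In ERβ-KO against control it was then -0.05 ± 0.10 (edgeR adjusted p = 0.8).

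FZD1, FZD2 and FZD7 make up the remaining branch, which signals mainly through β-catenin. FZD2 had 6.95 and 6.98 CPM in ERβ5, 7.51 and 7.25 CPM in ERβ1, 5.32 and 6.55 CPM in ERβ-KO and 8.83 and 8.24 CPM in control libraries. The order from low to high was ERβ-KO, ERβ5, ERβ1 and control, with no overlap between neighbours. FZD2 fell by 0.53 ± 0.15 on the log2 scale in ERβ-KO against control (edgeR adjusted p = 0.0356), the only pair of groups to pass. That call was lost without control 1, control 2 or ERβ-KO 1 (edgeR adjusted p = 0.208, 0.158 and 0.235). Of the 10 genes FZD2 had the fewest 50-base windows with a single exact place in the genome, at 96.5%, so reads shared with other places could touch few of its counts.

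FZD1 had 6.38 and 6.28 CPM in ERβ5, 6.68 and 6.71 CPM in ERβ1, 8.19 and 8.56 CPM in ERβ-KO and 8.78 and 7.59 CPM in control libraries. Both isoform groups were below ERβ-KO and control without overlap, by -0.40 ± 0.15 for ERβ5 and -0.32 ± 0.14 for ERβ1 against ERβ-KO. Neither passed over all genes (edgeR adjusted p = 0.0591 and 0.124). FZD7, a receptor of stem and tumour cells, had 28.5 and 27.9 CPM in ERβ5, 26.2 and 27.1 CPM in ERβ1, 21.3 and 27.8 CPM in ERβ-KO and 26 and 27.5 CPM in control libraries. Its one low library was ERβ-KO 1, and no comparison passed (edgeR adjusted p from 0.274 to 0.983).

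LRP5 is the co-receptor known for its role in bone mass. It lies at chr11:68080059-68216743 on the plus strand (GRCh37). LRP5 had 283 and 294 CPM in ERβ5, 278 and 236 CPM in ERβ1, 225 and 223 CPM in ERβ-KO and 280 and 275 CPM in control libraries. The ERβ-KO libraries were below all others, and ERβ1 spanned from near ERβ-KO to control. LRP5 rose by 0.37 ± 0.10 on the log2 scale in ERβ5 against ERβ-KO (edgeR adjusted p = 0.0212), to 289 ± 7.79 CPM in ERβ5 against 224 ± 1.41 CPM in ERβ-KO (SD, n = 2 each). That call was lost without ERβ-KO 1, ERβ-KO 2 or ERβ5 2 (edgeR adjusted p = 0.0786, 0.0886 and 0.0848). In ERβ-KO against control the difference was -0.31 ± 0.10 and just missed the threshold (edgeR adjusted p = 0.054). It passed in 9 of 17 alternative settings, among them DESeq2 (adjusted p = 0.034). These 9 include runs that left out an ERβ5 or ERβ1 library, which are not part of this comparison. None of the 9 left out a control or ERβ-KO library.

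LRP6, the co-receptor essential for most β-catenin signalling in the embryo, had 70.9 and 54.4 CPM in ERβ5, 61.9 and 66.4 CPM in ERβ1, 75.1 and 65.1 CPM in ERβ-KO and 71.2 and 64 CPM in control libraries. All 4 groups overlapped, and no comparison passed (edgeR adjusted p from 0.38 to 0.928). Per kb, LRP5 was 6.7 and 9.06 times LRP6 in ERβ5, 7.55 and 5.97 times in ERβ1, 5.01 and 5.74 times in ERβ-KO and 6.59 and 7.21 times in control libraries.

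Because FZD8 and FZD6 are both abundant, the make-up of the frizzled transcripts differed between groups. FZD8 gave 15.5 ± 1.64% of the summed FZD1 to FZD8 level per kb in ERβ5, 24.7 ± 3.46% in ERβ1, 11 ± 1.7% in ERβ-KO and 24.8 ± 0.721% in control (SD, n = 2 each). FZD6 gave 35.6 ± 2.33% in ERβ5, 34.7 ± 2.73% in ERβ1, 43.7 ± 0.206% in ERβ-KO and 31.4 ± 0.89% in control. FZD4 gave 24.7 ± 3% in ERβ5, 18.4 ± 0.434% in ERβ1, 25 ± 0.442% in ERβ-KO and 23.5 ± 0.287% in control. The sum itself was 53.6 and 49.3 CPM per kb in ERβ5, 53.4 and 56.5 in ERβ1, 57.6 and 60.6 in ERβ-KO and 63.5 and 60.9 in control libraries. It was thus highest in control and lowest in an ERβ5 library, and the shares moved more than the sum. These shares are a description and were not tested. They use levels without the correction for GC content given below, under which the FZD6 change in ERβ-KO against control was 0.09 ± 0.07 and did not pass. Shares of a sum are also tied, so a lower FZD8 share raises the others.

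**Figure D3:**
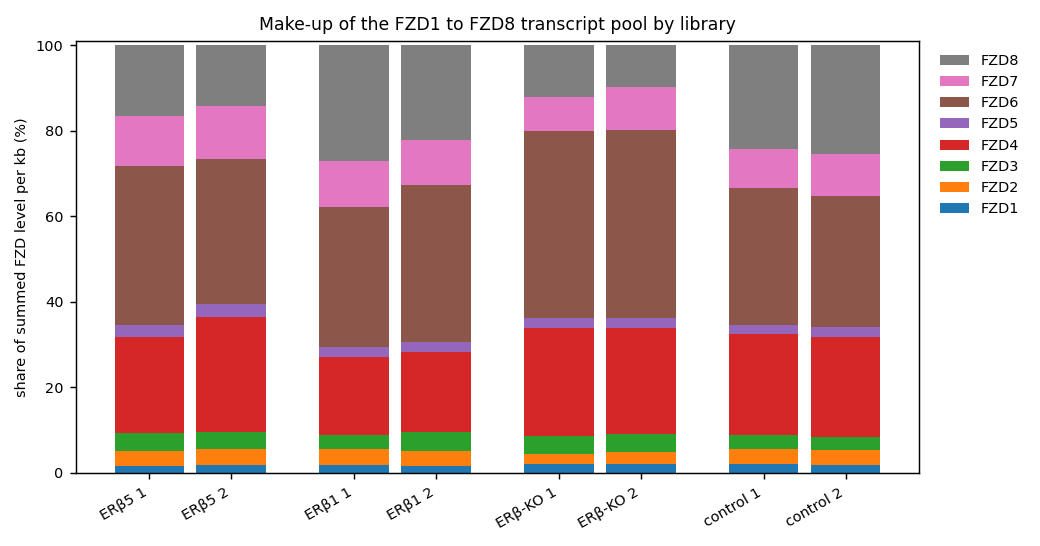
Share of each receptor in the summed FZD1 to FZD8 level per kb (vertical axis, percent) in each of the 8 libraries. FZD8, the top segment, takes 9.79 and 12.2% in the ERβ-KO libraries and 24.3 and 25.4% in the control libraries. The levels are not corrected for GC content.

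The ERβ-KO libraries carried a trend with base composition that touches several of these genes. Across 13268 genes, which are not independent replicates, each library's log2 level, centred gene by gene on the 8 libraries, had a correlation with the GC content of the transcript of r = -0.529 and -0.434 in ERβ-KO. That correlation was 0.107 and 0.316 in ERβ5, 0.329 and -0.124 in ERβ1, and 0.119 and 0.177 in control. In ERβ-KO against control, the median log2 change was 0.34 in the decile of genes with the lowest GC content (median 36.8%) and -0.37 in the highest (64.1%). FZD3 (34.9% GC) and FZD6 (37.7%) lie at the low end. LRP5 (62.9%) and FZD8 (64.6%) lie at the high end.

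With each library's trend with GC content and transcript length removed, FZD8 and FZD4 held their calls and FZD6, FZD2 and LRP5 did not. FZD8 was then -0.89 ± 0.18 in ERβ-KO against control (edgeR adjusted p = 0.015), 0.73 ± 0.18 in ERβ1 against ERβ-KO (0.0188), -0.85 ± 0.18 in ERβ5 against ERβ1 (0.0222) and -1.01 ± 0.18 in ERβ5 against control (0.00493). In ERβ5 against ERβ-KO it was -0.13 ± 0.18 (edgeR adjusted p = 0.661), where the uncorrected value had the opposite sign. FZD4 was -0.50 ± 0.10 in ERβ1 against ERβ-KO (edgeR adjusted p = 0.00553) and -0.55 ± 0.10 in ERβ1 against control (0.00836). FZD6 was 0.09 ± 0.07 in ERβ-KO against control, -0.16 ± 0.07 in ERβ1 against ERβ-KO and -0.14 ± 0.07 in ERβ5 against ERβ-KO (edgeR adjusted p = 0.432, 0.148 and 0.215). FZD2 was -0.39 ± 0.14 in ERβ-KO against control (edgeR adjusted p = 0.0859). LRP5 was -0.02 ± 0.07 in ERβ5 against ERβ-KO (edgeR adjusted p = 0.888), and its difference between ERβ-KO and control, -0.31 before, rounded to 0.00 in size (edgeR adjusted p = 0.995).

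**Figure D4:**
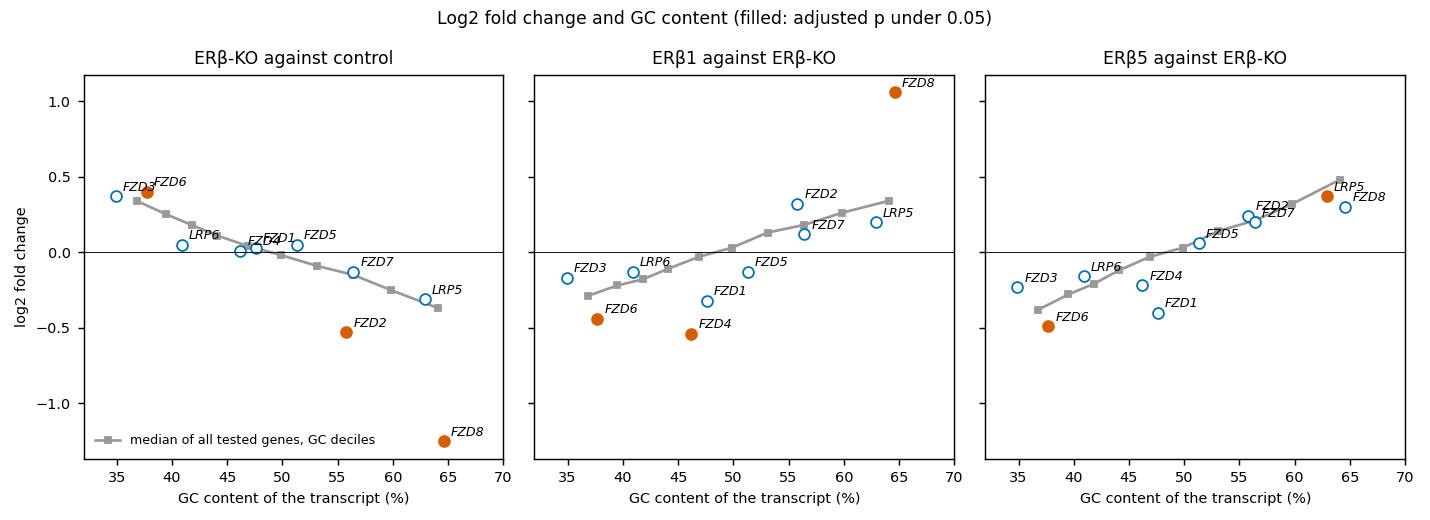
Log2 fold change (vertical axis) of each gene against the GC content of its longest transcript in percent (horizontal axis), filled where the adjusted p was under 0.05, with the median of all tested genes in GC deciles as a grey line. LRP5, FZD3 and FZD6 lie close to the line in ERβ-KO against control, whereas FZD8 lies at -1.25, where the decile with the highest GC content has a median of -0.37.

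Of the rest of the pathway, 9 lists held 113 genes, all found in the files, and 82 of them could be tested. In ERβ-KO against control 2 of the 82 rose and 10 fell, or 2.44% and 12.2%, beside 8.98% and 8.52% of all tested genes. Their median log2 change was -0.09, beside 0.01 for all genes. AXIN2, the standard feedback target of β-catenin, fell by 0.62 ± 0.13 (edgeR adjusted p = 0.0118), to 10.2 ± 0.737 CPM in ERβ-KO against 15.7 ± 0.203 CPM in control (SD, n = 2 each). It still fell with the GC trend removed (-0.54 ± 0.11, edgeR adjusted p = 0.0131). Of the 18 tested target genes, NKD2 (-0.70 ± 0.21) and EPHB3 (-0.36 ± 0.11) fell with it and 0 rose. KREMEN2, which takes LRP6 from the cell surface together with DKK1, fell by 1.02 ± 0.18 (edgeR adjusted p = 0.00475). The changes of NKD2, EPHB3 and KREMEN2 are given without the GC correction. Under that correction 3 of the 82 genes fell, AXIN2 among them.

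The other falls in ERβ-KO against control were spread over the pathway. They were the transcriptional partners TLE2 (-0.60 ± 0.14) and TLE3 (-0.47 ± 0.09), the WNT5A receptor ROR2 (-0.35 ± 0.11), FZD9 (-1.24 ± 0.37), SCRIB (-0.46 ± 0.15) and FRAT1 (-0.48 ± 0.13), which binds GSK3. WLS, the carrier of WNT ligands to the cell surface, rose by 0.31 ± 0.09, and TNKS, which marks axin for degradation, rose by 0.44 ± 0.13. Of the 10 tested ligand genes and 21 tested genes of the cytoplasmic pathway, 0 and 2 passed. The 12 calls became 1 without control 1, 0 without control 2, 1 without ERβ-KO 1 and 2 without ERβ-KO 2, and 21 without either ERβ5 library. With the GC trend removed 2 genes rose and 3 fell, with a median of 0.00, beside 0.01 for all genes. Shares of all tested genes by direction are not given under that correction.

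In ERβ1 against ERβ-KO, 13 of the 82 genes rose and 4 fell, or 15.9% and 4.88%, beside 12.4% and 12.5% of all tested genes. CCND1, a cyclin that WNT signalling can raise, rose by 0.89 ± 0.12 (edgeR adjusted p = 0.000383), to 771 ± 26.5 CPM in ERβ1 against 416 ± 35.3 CPM in ERβ-KO (SD, n = 2 each). The targets AXIN2 (0.50 ± 0.13) and EPHB3 (0.42 ± 0.11) rose with it. KREMEN2 (1.11 ± 0.18), TLE2 (0.92 ± 0.14), TLE3 (0.51 ± 0.09), CTNNBIP1 (0.40 ± 0.10), ROR2 (0.42 ± 0.11) and FRAT1 (0.41 ± 0.13) rose as well. PORCN, the enzyme that attaches the lipid to WNT ligands, rose by 0.66 ± 0.14, while WLS fell by 0.45 ± 0.09. RYK (-0.38 ± 0.11), TNKS (-0.44 ± 0.13) and CELSR1 (-0.32 ± 0.10) fell, and the polarity genes DAAM2 (1.32 ± 0.40), CELSR2 (0.45 ± 0.14) and PRICKLE2 (0.40 ± 0.14) rose. The 17 calls became 11 without control 1 or control 2, 8 without ERβ-KO 1 or ERβ-KO 2 and 5 without ERβ1 1. With the GC trend removed 9 rose and 7 fell, with a median log2 change of 0.05, beside 0.00 for all genes. The median was 0.14 before that correction. Shares of all tested genes by direction are not given under that correction, so these counts stand without a background.

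In ERβ5 against ERβ-KO, 21 of the 82 genes rose and 5 fell, or 25.6% and 6.1%, beside 14.7% and 13.5% of all tested genes. RNF43, which removes frizzled receptors from the surface and is itself a WNT target, rose by 0.71 ± 0.12 (edgeR adjusted p = 0.00313), to 219 ± 32.7 CPM in ERβ5 against 134 ± 14.8 CPM in ERβ-KO (SD, n = 2 each). Its relative ZNRF3 rose by 0.39 ± 0.12. Of the ligands WNT3A (0.87 ± 0.27), WNT10B (0.75 ± 0.26) and WNT7B (0.53 ± 0.13) rose, WNT7B to 34.8 ± 5.27 CPM and the others to at most 2.01 CPM. The nuclear genes TCF7L1 (0.94 ± 0.23), BCL9L (0.71 ± 0.13), TLE2 (0.56 ± 0.14) and TLE3 (0.45 ± 0.09) rose, as did the targets NKD2 (0.73 ± 0.22), EPHB3 (0.56 ± 0.11) and CCND1 (0.52 ± 0.12). Of the 18 tested target genes 5 rose and 0 fell, and AXIN2 did not pass (0.15 ± 0.14, edgeR adjusted p = 0.421). KREMEN2 (0.95 ± 0.18), PORCN (0.62 ± 0.14), ROR2 (0.49 ± 0.11), DVL1 (0.50 ± 0.16), CSNK1G2 (0.50 ± 0.12) and FAM123B (0.52 ± 0.12) rose too. So did the polarity genes CELSR2 (0.71 ± 0.14), SCRIB (0.64 ± 0.15) and CELSR3 (0.39 ± 0.10). TSPAN12, the partner of FZD4 in Norrin signalling, fell by 0.72 ± 0.19 (edgeR adjusted p = 0.0194), and RYK (-0.49 ± 0.11), TNKS (-0.52 ± 0.13) and DAAM1 (-0.45 ± 0.14) fell. The 26 calls became 11 without ERβ-KO 1, ERβ-KO 2 or ERβ5 2. With the GC trend removed 7 genes rose and 5 fell, with a median log2 change of 0.05, beside 0.01 for all genes. Shares of all tested genes by direction are not given under that correction.

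Between the isoform libraries 2 of the 82 genes were higher in ERβ5 than in ERβ1 and 0 were lower, or 2.44% and 0%, beside 3.49% and 1.18% of all tested genes. RNF43 was higher by 0.49 ± 0.12 (edgeR adjusted p = 0.0381), at 219 ± 32.7 CPM in ERβ5 against 155 ± 4.87 CPM in ERβ1 (SD, n = 2 each). FAM123B, a part of the β-catenin degradation complex, was higher by 0.52 ± 0.12 (edgeR adjusted p = 0.0341). Both held with the GC trend removed (RNF43 0.51 ± 0.11, FAM123B 0.51 ± 0.11). The 2 calls became 0 without control 1, control 2, ERβ1 1, ERβ1 2 or ERβ5 2, and 8 without ERβ5 1.

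Against control, 4 of the 82 genes were higher and 2 lower in ERβ5, or 4.88% and 2.44%, beside 6.85% and 6.31% of all tested genes. The genes of these comparisons with control were named after their values were seen. RNF43 (0.61 ± 0.12), TCF7L1 (0.78 ± 0.22), BCL9L (0.58 ± 0.13) and TCF7L2 (0.44 ± 0.13) rose, and AXIN2 (-0.47 ± 0.13) and FRAT2 (-0.40 ± 0.11) fell. Those 6 calls became 0 without control 1, and 1 without control 2 or ERβ5 2. In ERβ1 against control CCND1 rose (0.60 ± 0.12) and CELSR1 fell (-0.40 ± 0.10), or 1.22% in each direction, beside 1.36% and 2.7% of all tested genes. Both calls were lost without control 1, control 2, ERβ1 1 or ERβ1 2.

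FZD8, FZD4 and FZD2 had the widest ranges of group means, at 1.26, 0.55 and 0.53 on the log2 scale. The genes with the most similar profiles over the 8 libraries were sought by the mean absolute difference of centred log2 levels. For FZD8 they were TSPAN1 (0.0662), a tetraspanin of epithelial cells, BMF (0.0797), a promoter of apoptosis, and CXCR4 (0.0944), a chemokine receptor, against a median of 0.518 over all tested genes. For FZD4 they were CNKSR3 (0.052), PAPD7 (0.0544) and BLMH (0.0603), against a median of 0.263. For FZD2 they were the ribosomal protein gene RPS21 (0.0341), ZNF358 (0.0437) and C12orf10 (0.0458), against a median of 0.241. As the smallest differences among all tested genes, these values lie below the medians by selection and show no relation between the genes.

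**Figure D5:**
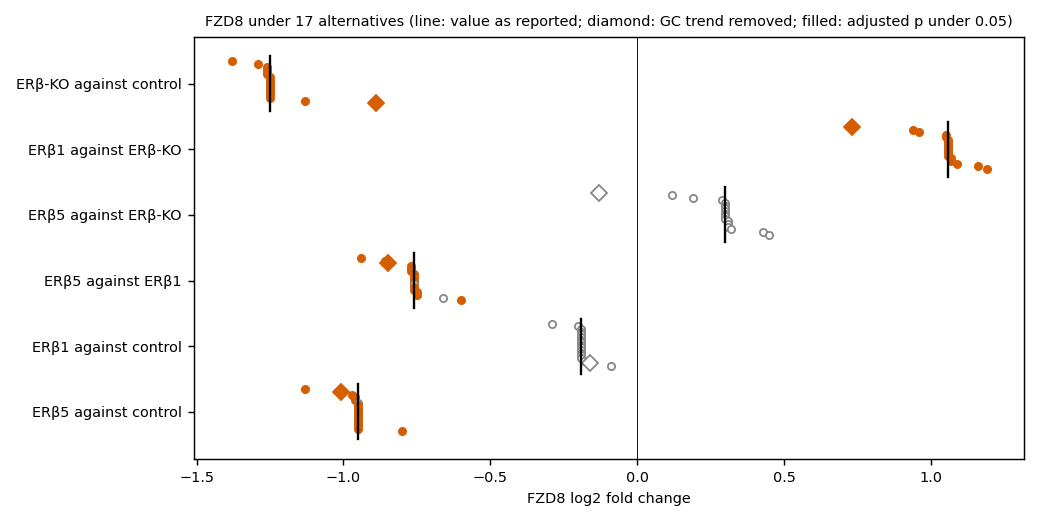
FZD8 log2 fold change (horizontal axis) in each of 6 comparisons under 17 alternative settings, with the reported value as a vertical line, the value with the GC trend removed as a diamond, and filled symbols for an adjusted p under 0.05. FZD8 passed under all 17 alternatives in ERβ-KO against control and in ERβ1 against ERβ-KO, under 15 in ERβ5 against ERβ1 and under 0 in ERβ5 against ERβ-KO. The 17 include runs that left out a library of a group outside the comparison.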

How the data were processed

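RNA sequencing reads of 50 bases had been counted per gene in 8 libraries. The authors deposited unnormalized counts of reads per gene. Reads, per the submitters' processing notes, were converted with bcl2fastq, aligned to hg19 with TopHat2 2.0.8b and counted with HTSeq, whose strand setting and annotation the sources used here do not give. The 5 closing entries that name no gene were left out of library sizes, and 52.5 to 57.1% of reads were in genes. Counts below filterByExpr's limits (minimum count 10, total 15) were removed, TMM factors were applied, and all 8 libraries were fitted together in edgeR 4.0.16 (R 4.3.3; quasi-likelihood, robust), with Benjamini-Hochberg adjustment over 13915 genes. The SE was obtained as log2 change over √F. No 2 libraries of a group agreed within sampling noise (chi-square over its degrees of freedom, 7.52 to 41.4).

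Gene positions, exon lengths, GC content (95.4% of tested genes) and exact 50-base windows came from GENCODE v44lift37 on GRCh37, and upstream sequences from RefSeq, which matched 5 of the 10 genes. All 10 receptor genes are named. From each pathway list up to 4 called genes per comparison with at least 1 CPM in the higher group are named, largest change first, and for the 3 receptors with the widest range the 3 nearest profiles. The receptors and lists were chosen with earlier results of these data known. The fit was tested on simulated data. Alternatives were other factors (relative log expression, upper quartile), filters and tests, DESeq2 1.42.0, only the groups compared, a replicate block, a GC and length correction and leaving out each library. Where 1 library of a group remained, its spread was assumed equal to that of the other groups.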

Additional observations from a re-analysis of the deposited data

Results flagged for a closer look

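FZD8 was the single gene of the 10 whose level differed between the isoform libraries by the test of that difference. The log2 change was -0.76 ± 0.14 in ERβ5 against ERβ1 (edgeR adjusted p = 0.0081). Both ERβ5 libraries (36.1 and 28.6 CPM) were below both ERβ1 libraries (58.8 and 51 CPM). Over 17 alternatives the change ran from -0.94 to -0.60, and it passed under 15. These include runs that left out a control or ERβ-KO library, which are not part of this comparison. The change did not pass against a 1.5-fold minimum or without ERβ1 replicate 1, where it was -0.66.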

How the results depend on the processing

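Over 17 alternatives, 972 of 1020 values of the 10 genes kept their side of the threshold, 33 lost a call, 14 gained one, and 1 reversed, which was LRP5 in ERβ5 against ERβ-KO at -0.02 with the GC and length trend removed. Another 44 values changed sign where neither value was called. Receptors called in ERβ-KO against control numbered 3 as reported, 5 without a filter, 5 with only the groups compared, 1 with the GC trend removed and 1 against a 1.5-fold minimum. The 1.5-fold test called 1 receptor in ERβ1 against ERβ-KO and 0 in ERβ5 against ERβ-KO, ERβ5 against ERβ1, ERβ1 against control and ERβ5 against control, and the GC correction called 0 in ERβ5 against ERβ-KO.

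Of the pathway lists, the 1.5-fold test called 1 gene in ERβ1 against ERβ-KO and 0 in the other 5 comparisons. In ERβ-KO against control (12 as reported) 25 were called with only the groups compared and 5 with the GC trend removed. In ERβ5 against ERβ-KO (26) the GC correction called 12. In ERβ5 against ERβ1 (2), 5 were called without a filter and 0 with only the groups compared. In ERβ1 against control (2), 5 were called without a filter, 1 at a minimum of 1 CPM and 1 with the replicate block. In ERβ5 against control (6), 11 were called without a filter and 13 with the GC trend removed. The cause was not tested.

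Leaving out each library gave 1 to 5 receptors in ERβ-KO against control, 2 to 4 in ERβ1 against ERβ-KO, 0 to 2 in ERβ5 against ERβ-KO, 0 to 1 in ERβ5 against ERβ1, 0 to 1 in ERβ1 against control, and 1 in ERβ5 against control each time. For the lists the ranges were 0 to 21, 5 to 23, 11 to 32, 0 to 8, 0 to 3 and 0 to 9 in the same order. Of all genes, 2434 (237 to 3226), 3466 (1198 to 4203), 3922 (1672 to 4378), 649 (125 to 1389), 565 (128 to 975) and 1831 (587 to 2143) were called. These ranges include runs that left out a library of a group outside the comparison. In ERβ-KO against control, every run without a control or ERβ-KO library called fewer receptors, list genes and genes in all than reported. In ERβ1 against control, every run without a control or ERβ1 library called fewer list genes and genes in all. In each other comparison some run without a compared library called more genes in all. In the same order, the 1.5-fold test called 123, 455, 160, 189, 86 and 341 of all genes. With only the groups compared, 4351 were called in ERβ-KO against control, 421 in ERβ5 against ERβ1 and 1107 in ERβ1 against control. Without a filter 1375 were called in ERβ5 against ERβ1 and 1384 in ERβ1 against control, where DESeq2 called 853. The GC correction called 2516 in ERβ5 against ERβ-KO, 1091 in ERβ5 against ERβ1, 1249 in ERβ1 against control and 2814 in ERβ5 against control.

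Deviations of same-numbered libraries correlated at -0.112 to 0.125, so the replicate numbers were not taken as pairs. With the replicate block 3, 3, 2, 1, 1 and 1 receptors were called in the same order, with no receptor call changed. With 2 libraries per group and a biological coefficient of variation of 0.102, small differences such as those of FZD1, at 171 to 361 reads, may not be detectable.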
